A study of Mus musculus with 2 samples.

Results

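State 7 is the later of the 2 stretches of the authors' cell trajectory in which both mouse melanoma lines of the study have many cells, and the lines were compared inside it. Its cells were chosen by the state number in the deposited cell table. It held 773 of all 4156 cells, namely 454 of 2582 B16F0 cells (17.6%) and 319 of 1574 B16F10 cells (20.3%). Both are cultured lines of the B16 melanoma, B16F0 the parental line and B16F10 a subclone that the labels call highly metastatic. Messenger RNA of single cells was counted by unique molecular identifiers (UMIs), which tag each captured molecule, with a droplet kit that reads the 3' end of transcripts. Each line had 1 library, so no difference has a replicate check, no test was made, and line cannot be told apart from library. The intervals given are 95% intervals of the counting error only.

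Melanoma cells descend from pigment cells. In these cells MITF, a transcription factor, drives the enzymes that make melanin (Tyr, Tyrp1, Dct) and the proteins of the melanosome (Pmel, Mlana), and the same factor takes part in the balance of division, differentiation and invasion. A trajectory method orders cells by similarity of expression along branches, so that a state is a branch segment and pseudotime the distance along it. The states were made from the expression of these same cells. Genes that differ between state 7 and the other cells are therefore a description of the state. How the authors computed the states is not described in these sources.

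The cells of state 7 were mostly outside the cell cycle in both lines. The authors' cycling class took 20 of 454 B16F0 cells (4.41%, exact Clopper-Pearson interval 2.71 to 6.72%) and 16 of 319 B16F10 cells (5.02%, 2.89 to 8.02%). Outside the state it took 65.4% of the B16F0 cells and 96.7% of the B16F10 cells, so state 7 held 37.1% of the non-cycling cells of B16F0 and 88.1% of those of B16F10. Most of the state fell in the authors' cluster C3, with 92.7% of its B16F0 cells and 88.7% of its B16F10 cells. Cluster C5, which holds most B16F10 cells outside the state, took 9.40% of the B16F10 state 7 cells and 0 of 454 B16F0 cells (upper bound 0.809%). In the authors' clustering into 2 groups, 14 B16F0 and 23 B16F10 cells of the state were grouped with the other line. The cells called high for Kdm5b, a histone H3 lysine demethylase linked to slow-cycling melanoma cells, made up 12.1% of the B16F0 and 22.9% of the B16F10 cells of the state.

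The lines did not fill the same stretch of the state. Pseudotime had a median of 15.3 in B16F0 (12.6 to 15.9) and 15.8 in B16F10 (13.5 to 16.5), and 153 B16F10 cells lay beyond the last B16F0 cell. The range from the 5th percentile of B16F10 to the 95th percentile of B16F0, 15.4 to 15.6, held 147 B16F0 and 75 B16F10 cells. Of the other cells of the state, 284 B16F0 cells lay below this range and 228 B16F10 cells above it. The authors' MITF score had a median of 0.248 in B16F0 and 0.000793 in B16F10 within the state.

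**Figure D1:**
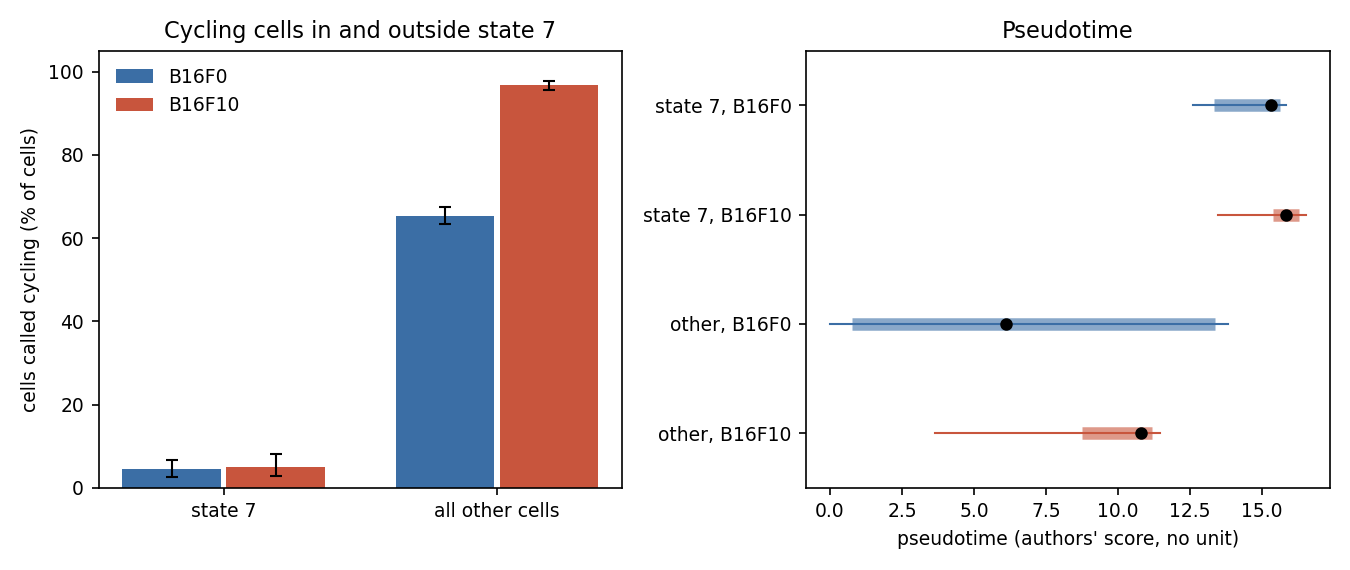
Left: share of cells called cycling (percent, exact Clopper-Pearson 95% intervals of counting error) in state 7 and in all other cells of each line, 4.41% and 5.02% in the state against 65.4% and 96.7% outside it. Right: pseudotime of the same cells, with dots at the median, thick bars from the 5th to the 95th percentile and thin lines over the full range; within state 7 the B16F10 cells lie later.

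Depth was similar between the lines within the state. The cells summed to 15045371 UMIs in B16F0 and 10280853 in B16F10, with a median of 32292 and 30097 UMIs and of 4954 and 4805 genes per cell. A count of 0 allows up to 3 counts, or 0.199 and 0.292 CPM (counts scaled to the same total in each set of cells). The mitochondrially encoded share was higher in B16F10, at a median of 7.90% against 5.36%, and its part in the differences below was not tested. Melanocyte markers were high in both lines: Mlana reached 2782 and 1399 CPM and Sox10 84.7 and 103 CPM. Markers of fibroblasts, macrophages, T and NK cells, keratinocytes and erythroid cells summed to at most 9.44 CPM per list in either line, but only 5 of 10, 3 of 10, 1 of 10, 2 of 10 and 1 of 8 of these markers were in the count table. Of the endothelial list 3 of 10 markers were in the count table, summing to 65.1 and 69.1 CPM, and Egfl7 gave 63.7 and 65.2 CPM of these. Of 6 barcodes shared by the libraries, 0 belonged to state 7 cells.

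A gene was called at 2-fold or more with at least 20 CPM in the higher line. Within state 7, 84 of 5111 genes at that level were higher in B16F10 (1.64%) and 83 were lower (1.62%). When the total was taken without mitochondrial and ribosomal protein genes, the calls became 134 higher and 86 lower. Over all cells 81 of 5296 genes were higher (1.53%) and 85 lower (1.6%). These sets of cells overlap, since state 7 is part of each library, so the cells outside the state are given beside it throughout. Outside it 94 of 5358 genes were higher (1.75%) and 97 lower (1.81%). The cells outside lie in different states in the 2 lines. In B16F0 1963 of 2128 were in states 2 to 6, and in B16F10 1254 of 1255 were in state 1. A ratio outside state 7 therefore does not compare like cells, and the part of this in the differences from state 7 was not tested. The median log2 ratio of B16F10 over B16F0 was -0.01 among the genes at 20 CPM in state 7 and 0.14 outside it.

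Of the 166 differences over all cells, 99 were kept at 2-fold within the state (59.6%). Among the 81 genes higher in B16F10, 48 were kept, 27 were reduced to between 1.5-fold and 2-fold, 2 were lost to under 1.5-fold and 4 had under 10 CPM in both lines of the state. Among the 85 lower genes, 51 were kept, 18 reduced, 10 lost and 6 too low. The genes with the largest differences over all cells were kept: of those at 4-fold or more, 12 of 12 higher genes and 15 of 18 lower genes, the other 3 being too low in the state. The ratio was nearer to 0 in the state than outside it for 54 of 77 higher and 55 of 79 lower genes; choosing genes by their ratio over all cells, most of which lie outside the state, by itself favours this. In the other direction, 14 genes were called in state 7 that were under 1.5-fold over all cells. With the cells outside the state as the base, 91 of 191 differences were kept and 32 were lost.

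**Figure D2:**
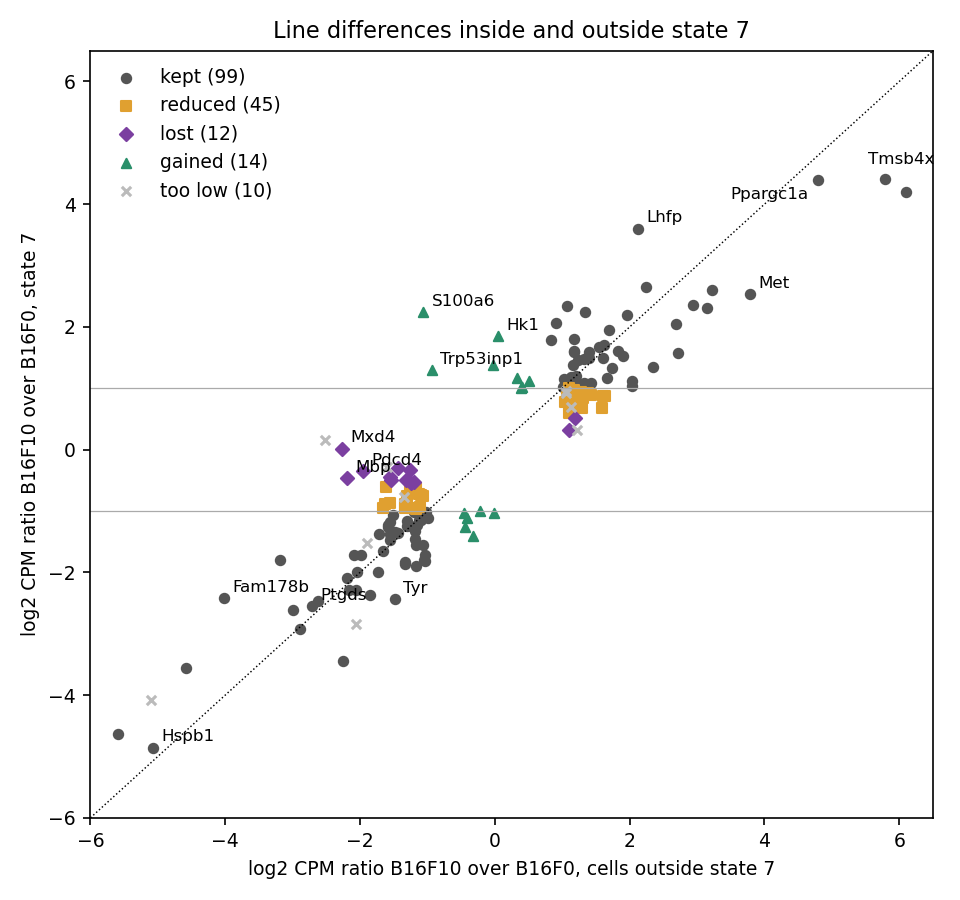
Each point is a gene called over all cells or in state 7, with its log2 CPM ratio of B16F10 over B16F0 outside state 7 (x axis) and in state 7 (y axis); colours and shapes give its class with the number of genes, grey lines mark 2-fold and the dotted line equal ratios. The 99 kept genes lie beyond 2-fold on the y axis, and the 12 lost genes at under 1.5-fold there, not all of them near 0. S100a6 and Trp53inp1 lie on opposite sides of 0 in the 2 sets of cells.

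Among the genes kept higher in B16F10, Tmsb4x and Ppargc1a had the highest ratios in the state. Tmsb4x (chrX:167207093-167209315, minus strand, on GRCm38, as for all positions here), which encodes the actin monomer-binding peptide thymosin beta 4, stood at 4.85 CPM in the B16F0 and at 103 CPM in the B16F10 cells of state 7 (log2 ratio 4.41, 4.07 to 4.78). The B16F0 value rests on few cells, since 45.2% of its 73 UMIs lay in the 14 cells grouped with B16F10, and without the cells grouped with the other line the log2 ratio was 5.31. Ppargc1a (chr5:51454250-51567726, minus strand) encodes PGC-1alpha, a coactivator of mitochondrial biogenesis. State 7 cells had 9.77 CPM in B16F0 against 205 CPM in B16F10 (log2 ratio 4.39, 4.15 to 4.64), close to its 4.79 outside the state. After thinning each cell to 20711 UMIs, a Ppargc1a UMI was found in 10.5% of 389 B16F0 cells and 77.4% of 287 B16F10 cells (15.0% and 86.5% before thinning), so the difference lay in most cells and not in a small group. No cell type that lacks these genes is in the data, so the share of cells with a UMI from free RNA was not measured.

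Met (chr6:17463800-17573980, plus strand) encodes the receptor of hepatocyte growth factor, a MITF target in melanocytes. It was kept with a smaller ratio. State 7 cells gave 31.4 CPM in B16F0 against 182 CPM in B16F10 (log2 ratio 2.53, 2.39 to 2.68), and the other cells 9.67 and 134 CPM (3.79). The smaller ratio in the state goes with a B16F0 level that was 1.70 higher on the log2 scale in state 7 than outside it, against 0.44 higher in B16F10. A Met UMI was found in 37.3% of the thinned B16F0 cells and 83.6% of the B16F10 cells (44.1% and 88.7% unthinned).

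Other genes kept higher in B16F10 included Lgals3, which encodes the galactose-binding lectin galectin-3, at 194 and 806 CPM (2.05), and Sparc, a secreted matrix-binding glycoprotein, at 357 and 1005 CPM (1.49). Mcam, the melanoma cell adhesion molecule, gave 24.2 and 60.9 CPM (1.33). Lhfp (chr3:53041528-53261679, plus strand), a membrane protein gene, was kept with a larger ratio: 6.11 and 74.3 CPM in the state (3.60) against 13.4 and 58.5 CPM outside it (2.12). Fn1, which encodes the matrix protein fibronectin, likewise gave 6.91 and 29.0 CPM in the state (2.07) and 12.6 and 23.8 CPM outside (0.91). The phosphodiesterase gene Pde10a (2.60), the signalling adaptor gene Grb14 (2.36), Fam198b (2.20), the actin filament-capping gene Tmod1 (1.95), the mitophagy receptor gene Bnip3 (1.80), Tnfaip2 (1.79) and the LIM domain gene Pdlim2 (1.67) were also among the 12 highest ratios at 50 CPM.

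The lower end held genes of prostaglandin D synthesis, antioxidant defence and pigmentation. Ptgds (chr2:25466709-25470046, minus strand), the lipocalin-type prostaglandin D synthase, stood at 1972 CPM in B16F0 against 337 CPM in B16F10 (log2 ratio -2.55, -2.60 to -2.50). Hpgds, the hematopoietic form of the enzyme, gave 75.6 and 13.6 CPM (-2.47), so both enzymes that end this path were lower by like amounts, as outside the state (-2.71 and -2.63). Hspb1, a small heat shock protein, was at 39.5 CPM in B16F0 against 1.36 CPM in B16F10 (-4.86, -5.74 to -4.10). In the thinned cells an Hspb1 UMI was found in 46.5% of B16F0 and 2.09% of B16F10 cells (56.2% and 3.76% unthinned). Cyb5a, cytochrome b5, gave 1184 and 230 CPM in the state (-2.36), a larger difference than outside it (-1.85), and Apoe, apolipoprotein E, 1109 and 306 CPM (-1.86 against -1.33). Fam178b went the other way, at 85.8 and 16 CPM in the state (-2.42) and 158 and 9.79 CPM outside (-4.01). These contrasts were not all particular to state 7. In state 1 Fam178b gave 51.4 and 9.80 CPM (-2.39) and Apoe was at -1.66, both nearer to their state 7 ratios. Cyb5a was at -1.59 there, nearer to its ratio outside.

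**Figure D3:**
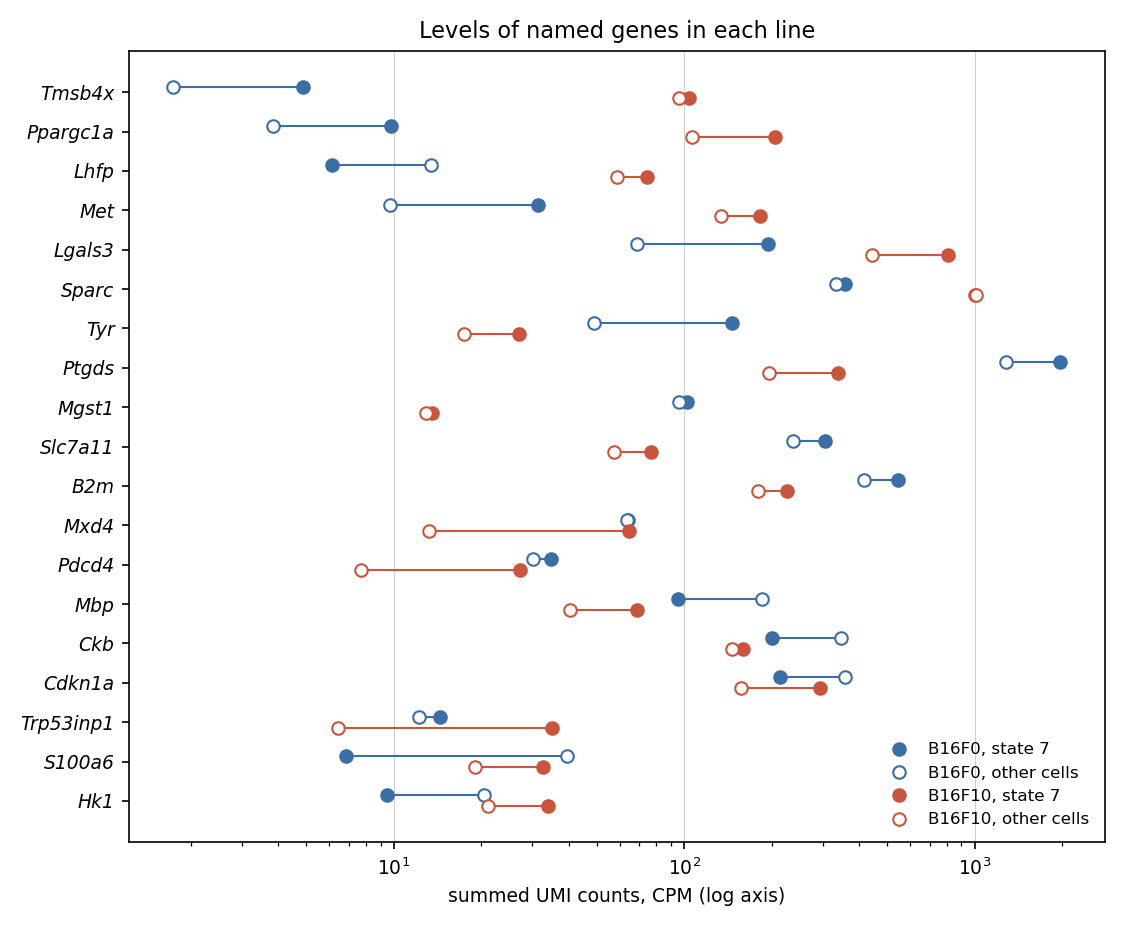
Summed UMI counts in CPM (log axis) for 19 genes in state 7 (filled) and in all other cells (open) of B16F0 (blue) and B16F10 (red), with 1 library per line and no error bar. From Tmsb4x to B2m the lines stay apart in both sets of cells. From Mxd4 to Ckb they lie closer together in state 7, and from Cdkn1a to S100a6 they change order. For Hk1 they lie apart in state 7 and close together over all other cells. In state 1, not drawn apart here, the Hk1 log2 ratio was 1.62.

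The 12 lost differences were in 10 genes lower and 2 genes higher in B16F10 over all cells. The number was 3 with a stricter limit on the ratio in the state, and 39 in the shared pseudotime range. Which genes ordered the cells is not given in these sources. Whether the choice of the state holds such genes alike between the lines, and whether lost genes are among them, was not tested. Mxd4 (chr5:34173883-34187720, minus strand), which encodes a partner of MAX that opposes MYC at its target sites, was the clearest. Its level in B16F0 was alike in and outside the state, at 63.8 and 63.7 CPM. In B16F10 it was 64.6 CPM in the state and 13.2 CPM outside. The line ratio was thus 0.02 (-0.13 to 0.16) in state 7 and -2.27 outside, and a UMI was found in 61.2% and 61.0% of the thinned cells (76.7% and 67.4% unthinned). Pdcd4, an inhibitor of translation initiation, had the same pattern, with 34.6 and 27.2 CPM in the state (-0.35) and 30.1 and 7.73 CPM outside (-1.96). Snhg12, a noncoding host of small nucleolar RNAs, gave 123 CPM in both sets of B16F0 cells, and 91.0 CPM in and 41.6 CPM outside the state in B16F10.

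In other lost genes the B16F0 level was the one that differed more between state 7 and the other cells. Ckb, the brain-type creatine kinase, gave 201 and 160 CPM in state 7 (-0.33) and 347 and 145 CPM outside (-1.25). Cst3, the cysteine protease inhibitor cystatin C, gave 516 and 353 CPM in the state (-0.55) and 779 and 329 CPM outside (-1.25). Dlx6, a homeobox gene, gave 15.2 and 12.3 CPM against 34.3 and 12.6 CPM. Mbp, known for myelin basic protein, differed in both lines: 95 and 68.6 CPM in the state (-0.47), 186 and 40.4 CPM outside (-2.20). Of the 12 lost genes, the level differed more between state 7 and the other cells in B16F10 for 7 and in B16F0 for 5. The remaining lost genes were Angptl6 (-0.49), Serpinb6a (-0.50) and Cyb5r2 (-0.53) among the lower ones, and Fbln5 (0.51), the matrix protein fibulin-5, and Spsb4 (0.32) among the higher ones.

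The share of cycling cells outside the state differs between the lines, so the lost genes were also read within the authors' cycling classes over all states. Among cycling cells 10 of the 12 were at 2-fold or more in the direction they had over all cells. Among non-cycling cells 5 were, and 4 were under 1.5-fold that way. State 7 itself held 88.1% of the non-cycling B16F10 cells and 37.1% of the non-cycling B16F0 cells. The non-cycling ratio of a gene lost there thus rests largely on the same B16F10 cells, and cannot tell cycling class from state. Mxd4 had a log2 ratio of -1.66 in cycling and -0.60 in non-cycling cells, and Pdcd4 -1.48 and -0.71. Cst3 (-1.06 and -1.17) and Dlx6 (-1.29 and -1.35) were at 2-fold in both classes, and lost in state 7. Ckb was at -1.20 in non-cycling cells and just short of 2-fold in cycling cells. In state 1, where all 165 B16F0 cells and 96.7% of the 1254 B16F10 cells were called cycling, Ckb had 159 and 145 CPM (-0.13) and Cst3 459 and 328 CPM (-0.49). In the B16F0 cells of states 2 to 6 Ckb stood at 363 CPM and Cst3 at 808 CPM, above both. Among the other lost genes at 50 CPM, state 1 gave -0.60 for Mxd4, -0.81 for Mbp, -0.73 for Serpinb6a and 0.35 for Fbln5. Snhg12 and Angptl6 were at -1.61 and -1.54 there.

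S100a6 (chr3:90612882-90624181, plus strand) encodes the calcium-binding protein calcyclin, and its order between the lines differed between state 7 and the other cells. It was higher in B16F10 within state 7, at 6.85 CPM in B16F0 against 32.5 CPM in B16F10 (log2 ratio 2.25, 1.92 to 2.58), and lower in B16F10 outside it, at 39.5 and 19.0 CPM (-1.06). In the thinned cells of the state an S100a6 UMI was found in 5.40% of B16F0 and 21.3% of B16F10 cells (9.03% and 27.3% unthinned). State 1 had the order of state 7, with 3.28 and 19.0 CPM (2.53), and the high B16F0 level was that of states 2 to 6, at 42.7 CPM over 1963 B16F0 cells, where B16F10 has 1 cell. Hk1, hexokinase 1, was higher in B16F10 in both shared states, at 9.44 and 34.0 CPM in state 7 (1.85) and 6.88 and 21.1 CPM in state 1 (1.62). Over all cells outside state 7 it was alike in the lines, at 20.3 and 21.1 CPM (0.05, -0.06 to 0.17).

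Cdkn1a, Trp53inp1 and Ccng1, targets of p53, the tumour suppressor that halts division under stress, were higher in B16F10 in state 7 and lower outside it, Cdkn1a and Ccng1 by under 1.5-fold in the state. Cdkn1a (chr17:29090976-29100727, plus strand) encodes p21, an inhibitor of cyclin-dependent kinases. Its level in state 7 was 213 CPM in B16F0 against 294 CPM in B16F10 (log2 ratio 0.46, 0.39 to 0.53) and 356 and 156 CPM outside the state (-1.19). Trp53inp1, a p53-induced nuclear protein gene, gave 14.4 and 35.1 CPM in the state (1.29) and 12.2 and 6.41 CPM outside (-0.93), and Ccng1, cyclin G1, 126 and 186 CPM (0.57) against 117 and 88.6 CPM (-0.40). Of the 22 listed targets 15 reached 10 CPM in state 7, where their median log2 ratio was 0.43 against 0.02 for all genes at that level; outside the state it was -0.07 against 0.15. At 1.5-fold 3 of the 15 were higher in B16F10 and 0 lower, beside 8.59% and 7.38% of all 7185 genes at 10 CPM. The higher ones were Trp53inp1, Phlda3 (0.80), a repressor of AKT signalling, and Sesn2 (0.69), a sestrin of the stress response. In the shared pseudotime range Cdkn1a was at -0.08, Trp53inp1 at 0.23 and the list median at 0.11. In state 1 Cdkn1a was lower in B16F10 (-0.96), but Trp53inp1 was at 0.36, with an interval that holds 0 (-0.17 to 0.93). Among cycling cells of all states Cdkn1a was at -1.26 and Trp53inp1 at -0.56. Among non-cycling cells Cdkn1a was alike in the lines, at 283 and 286 CPM (0.02), and Trp53inp1 was higher in B16F10 (0.986). The part of the cycling class in the change of order was not tested.

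The 14 gained genes were 8 higher and 6 lower ones. Beside S100a6, Hk1 and Trp53inp1, the higher ones included Tubb3, a neuronal beta tubulin, at 32.2 and 69.9 CPM in the state (1.12, against 0.51 outside), Hspb6, a small heat shock protein (1.37, against -0.03), and Glce, Gm30025 and Slc35f1 between 1.01 and 1.17. The lower ones included the homeobox gene Irx5 (-1.40, against -0.33), and Ctnnbl1, Rpgrip1, Utp4 and Osgep between -1.11 and -1.0. Among cycling cells of all states 0 of the 14 reached 2-fold in this direction, and among non-cycling cells 2 did.

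Pigment genes split between the lines in state 7, and their median ratio was lower than outside it. Tyr (chr7:87424771-87493512, minus strand), tyrosinase, which starts melanin synthesis, stood at 146 CPM in B16F0 against 27.0 CPM in B16F10 (log2 ratio -2.43, -2.62 to -2.25), against 48.7 and 17.5 CPM outside the state (-1.48). A Tyr UMI was found in 85.9% and 26.8% of the thinned cells (88.1% and 32.0% unthinned). Trpm1, a cation channel of melanocytes, gave 138 and 39.6 CPM (-1.80, against -1.06), and Pmel, the fibril protein of the melanosome, 1698 and 755 CPM (-1.17, against -0.67). Mlana followed at -0.99, and Slc24a5, a melanosomal ion exchanger, at -0.90. By contrast Dct, dopachrome tautomerase, gave 3141 and 3025 CPM (-0.05), Tyrp1 1784 and 2306 CPM (0.37) and Mc1r, the melanocortin receptor, 79.5 and 123 CPM (0.63). The ratios were not all particular to state 7. In state 1 Pmel was at -0.99 and Dct at -0.06 (0.44 in all cells outside state 7), both nearer to their state 7 values. Mlana was at -0.70 in state 1, nearer to its -0.73 outside. In the shared pseudotime range Dct was lower in B16F10, at -0.49 (-0.53 to -0.44), and Tyrp1 was alike in the lines, at -0.01 (-0.06 to 0.04). Pmel was at -1.33, Mlana at -0.86 and Tyr at -3.09 in that range. Of 19 measured members of the pigment list 1 was higher and 8 lower at 1.5-fold in the whole state, beside 8.59% and 7.38% of all genes at 10 CPM. The list median was -0.24, against 0.09 outside the state. Mitf itself was higher in B16F10 in the state, at 118 and 206 CPM (0.80), as outside it (0.86), while the authors' MITF score was lower.

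Interferon-stimulated genes were mostly lower in B16F10, in the state and outside it. The list counts below are at 1.5-fold in the state, where 8.59% of all genes at 10 CPM were higher and 7.38% lower. Isg15, a ubiquitin-like protein, gave 24.7 and 7.49 CPM in the state (-1.72), Bst2, tetherin, -1.16, and B2m, the light chain of MHC class I, 542 and 226 CPM (-1.27, against -1.21). Of 9 measured interferon-stimulated genes 0 were higher and 7 lower, with a median of -1.0 (-1.02 outside), and of 8 MHC class I presentation genes 0 were higher and 4 lower, with a median of -0.54 (-0.63). Their members varied: Rsad2, an interferon-induced antiviral gene, was at -1.53 in the state and -0.98 outside it, and Calr, the chaperone calreticulin of the presentation list, at -0.69 and -0.09. Lysosome and autophagy genes had 0 higher and 9 lower of 24, led by the autophagy receptor gene Sqstm1 (-1.14) and Grn, progranulin (-1.07), with medians of -0.34 and -0.43. Genes of glutathione, oxidative stress and iron had 1 higher and 11 lower of 24, with medians of -0.44 and -0.35. Mgst1, a microsomal glutathione transferase, gave 102 and 13.5 CPM (-2.92), Slc7a11, the cystine importer, 306 and 76.6 CPM (-2.0), and Gstm1 82.6 and 25.2 CPM (-1.71).

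Glycolysis genes were higher in B16F10 within the state, as outside it. Of 18 measured members 12 were higher at 1.5-fold and 0 lower, with a median of 0.72 (0.70 outside). Of all 7185 genes at 10 CPM in the state, 8.59% were higher and 7.38% lower at 1.5-fold. Examples are Pfkl, a phosphofructokinase, at 14.0 and 38.9 CPM (1.47), and Slc2a1, the glucose transporter GLUT1, at 8.24 and 24.1 CPM (1.55), while Gapdh, whose processed pseudogenes can share its reads, was at -0.16. The 13 mitochondrially encoded genes had a median of 0.53 (0.36 outside), with mt-Nd5 at 0.69 and mt-Co1 at 0.63. Of 15 mesenchymal and invasion genes 7 were higher and 2 lower, with a median of 0.56 (0.40); Vim, vimentin, was among those between, at -0.47, and L1cam, an adhesion molecule, among the lower (-1.21).

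The medians of 2 growth lists were lower in state 7 than in the other cells. S phase genes had a median of 0.01 in the state, with 2 higher and 0 lower of 31 measured, against 0.40 outside, where 12 were higher beside 13.2% of all genes at 10 CPM; the state median was below 0 with trimmed-mean scaling (-0.03) and with median-of-ratios scaling (-0.04). Ribosome biogenesis genes had a median of -0.31 in the state and 0.13 outside. Nop56, a core protein of small nucleolar ribonucleoproteins, had 202 and 113 CPM in the state (-0.84) and 189 and 205 CPM outside (0.12), and Gnl3, nucleostemin, was at -0.83 and -0.18. In state 1 both were also lower in B16F10, Nop56 at 286 and 205 CPM (-0.48) and Gnl3 at -0.49. Of the 22 measured members 1 was higher and 3 lower in the state, beside the 8.59% and 7.38% of all genes, so few members passed 1.5-fold. The G2 and M phase list kept a median of 0.40 (0.51 outside), but 21 of its 53 members reached 10 CPM in the state, and Mki67, a proliferation marker, stood at 1.93 and 2.33 CPM.

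**Figure D4:**
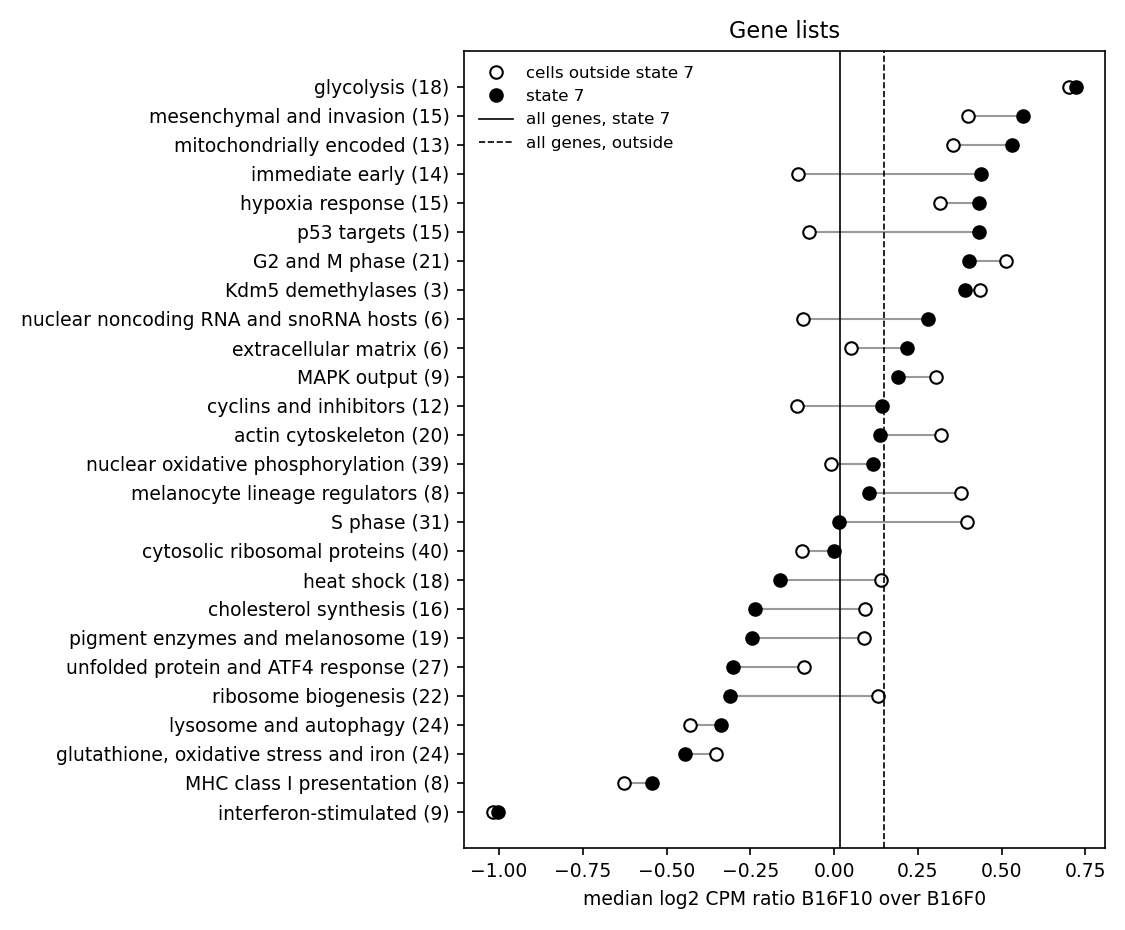
Median log2 CPM ratio of B16F10 over B16F0 for gene lists with 3 or more members at 10 CPM (number measured in state 7 in brackets), in state 7 (filled) and outside it (open), with the medians of all genes as vertical lines; the prostaglandin D list, at -2.47 and -2.63, is left off the axis. Interferon-stimulated and glycolysis genes have nearly the same median in both, while p53 targets are at 0.43 and -0.07 and ribosome biogenesis genes at -0.31 and 0.13.

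Because the B16F10 cells lie later in the state, the ratios were also taken in the shared pseudotime range, over 147 B16F0 and 75 B16F10 cells. Of the 99 kept genes 68 were kept there, and the lost genes numbered 39 in place of 12. Of the 49 named genes at 2-fold in the state, many of them named for their extreme ratios, 39 were at 2-fold there. Tmsb4x had a log2 ratio of 5.03, Ppargc1a 3.41, S100a6 3.52, Met 1.67, Tyr -3.09 and Ptgds -2.75. Mxd4 stayed near 0 (-0.02), and Cdkn1a had 255 and 241 CPM, a ratio of -0.08 (-0.22 to 0.06) in place of 0.46. Of 15 p53 targets measured there 2 were higher and 1 lower at 1.5-fold. Of the range's cells 0 of 147 in B16F0 and 7 of 75 in B16F10 were called cycling, and Birc5, survivin, gave 20.7 and 150 CPM. The median of all genes at 20 CPM was 0.09 in the range, 0.10 above that of the state.

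Some hypoxia-response genes had the other order in that range. Bnip3 (chr7:138890836-138909519, minus strand), a mitophagy receptor gene induced by low oxygen, was higher in B16F10 over the state, at 38.7 and 135 CPM (1.80, 1.66 to 1.94). In the shared range it was 55.0 CPM in B16F0 against 38.7 CPM in B16F10 (-0.51, -0.86 to -0.17). The 228 later B16F10 cells had 175 CPM, and the 284 earlier B16F0 cells 22.3 CPM. Ero1l, an oxidase of protein folding, gave 238 and 211 CPM over the state (-0.17) and 260 and 67.9 CPM in the range (-1.94). Fam162a, a hypoxia-induced mitochondrial gene, went from 0.80 to -0.44 and Higd1a, another hypoxia-induced mitochondrial gene, from 0.67 to -0.16. The list median was 0.43 over the state, with 6 higher and 0 lower of 15, and -0.44 in the range. Of the 14 members at 10 CPM there, 11 were below 0, and the interval lay below 0 for 6, above 0 for 2 (P4ha2, at 1.43, and Ddit4, at 0.62) and held 0 for 6. At 1.5-fold 2 were higher and 2 lower, beside 13.5% and 6.21% of all genes in the range. The median of the ribosome biogenesis list also changed sign, from -0.31 to 0.07, and that of glycolysis was 0.34. Of 15 glycolysis genes measured in the range 3 were higher and 0 lower at 1.5-fold, beside the same shares of all genes. In the range Pfkl was at 0.41 and Slc2a1 at 0.06, each with an interval that holds 0.

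**Figure D5:**
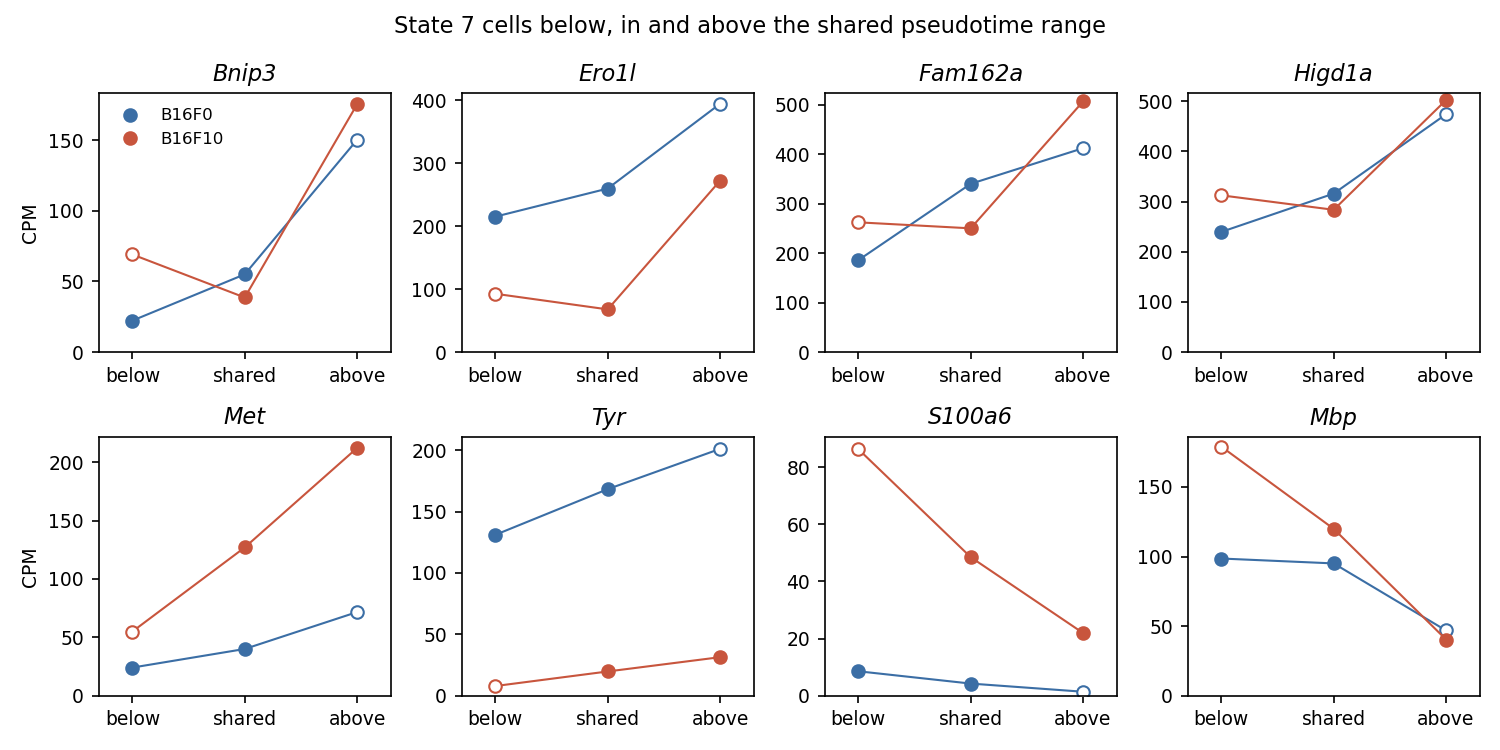
CPM of 8 genes in state 7 cells below, in and above the shared pseudotime range for B16F0 (blue, 284, 147 and 23 cells) and B16F10 (red, 16, 75 and 228 cells); open points rest on the 16 or 23 cells and there is no error bar. Bnip3, Ero1l, Fam162a and Higd1a are highest above the range in both lines, and within the range lower in B16F10, whereas Met stays higher and Tyr lower in B16F10 in each part.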

How the data were processed

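Single cells of 2 cultured mouse melanoma lines were profiled with the v2 chemistry of the 10x Chromium 3' kit, and per the labels each line had 1 library. The authors deposited raw UMI counts for 14959 genes in 4156 cells, per the file headers, and a table of classes and of scores per cell (line, trajectory state, pseudotime, clusters, cycling and Kdm5b class, MITF score). The submitters' processing notes name Cell Ranger 3.0.0, Seurat 3.0 and build mm10; settings, cell filters and the making of classes and scores were not given in the sources used here. No doublet caller was run; leaving out the deepest 5% of cells was an alternative.

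Counts were summed over the state 7 cells of each line and divided by their total to CPM. Log2 ratios carry exact conditional binomial intervals, shares of cells exact Clopper-Pearson intervals, all for 95% and counting error only. Cells are not replicates, so a fixed size replaced a test: 2-fold with 20 CPM in the higher line. A difference over all cells was kept at 2-fold, lost under 1.5-fold, and not classed under 10 CPM. List members needed 10 CPM and were counted at 1.5-fold. For shares, cells were thinned to 20711 UMIs, the 10th percentile of the shallower line in state 7, leaving out 65 B16F0 and 32 B16F10 cells. Members, lists and thresholds were chosen with earlier results of these data known.

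Named genes were the 12 highest and 12 lowest ratios in state 7 at 50 CPM (without predicted, ribosomal protein and mitochondrially encoded genes), up to 12 lost and 12 gained genes at 50 CPM (8 and 1 reached it), the 3 members of each list with the largest ratio at 20 CPM, and 25 fixed genes. Outside this rule, Pdcd4, Dlx6, Cyb5r2, Spsb4, Hspb6, Glce, Gm30025, Slc35f1, Irx5, Ctnnbl1, Rpgrip1, Utp4, Osgep, Ccng1, Slc24a5, Mc1r, Bst2, Gapdh, L1cam, Ero1l, P4ha2, Ddit4 and Malat1 were named after their values were seen. Positions are from GENCODE M21 on GRCm38, where 98.6% of symbols matched exactly 1 gene. Scaling alternatives used edgeR 4.0.16 and DESeq2 1.42.0 factors only, in R 4.3.3; all else used pandas 2.3.3, numpy 2.4.6 and scipy 1.17.1 in Python 3.11.15, with matplotlib 3.10.9. The classing of genes was run on simulated counts whose planted differences lay well away from the class limits. That run says nothing about genes near those limits.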

Additional observations from a re-analysis of the deposited data

How the results depend on the processing

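No paired analysis was possible because each line had 1 library. Of 84 alternative values of the 6 counts of genes (higher, lower, kept higher, kept lower, lost and gained), 56 stayed within 1.5 times and 28 did not; the cause was not tested where it is not the setting itself. With a minimum of 10 CPM there were 146 higher, 74 kept higher, 19 lost and 29 gained genes. At 50 CPM there were 28 higher, 40 lower, 17 kept higher, 29 kept lower and 1 gained. With no minimum there were 1514 higher, 1486 lower, 686 kept higher, 853 kept lower, 680 lost and 941 gained, which includes genes of few UMIs. Leaving mitochondrial and ribosomal protein genes out of the total, there were 134 higher and 20 lost genes. The 20 and 16 cycling cells alone gave 330 higher, 396 lower, 40 lost and 505 gained genes, and medians of -0.51 for the G2 and M phase list and -0.56 for the Kdm5 list, on the other side of 0. Non-cycling cells alone gave 5 gained genes. The shared pseudotime range gave 152 higher, 39 lost and 82 gained genes, and reversed the hypoxia list (-0.44) and Bnip3 (-0.51). With the cells outside the state as the base 32 genes were lost. With a stricter limit for lost and gained, 3 were lost and 4 gained. Trimmed-mean and median-of-ratios factors shifted the typical gene by -0.05 and -0.06; they gave 72 higher and 96 lower, and 70 higher and 100 lower genes, and 88 of the 99 kept and 9 of the 12 lost genes were shared with the reported ones under each. Cluster C3 cells alone, and the state without cells grouped with the other line, were chosen after the data were seen; they shared 92 and 97 of the 99 kept genes, and 9 and 11 of the 12 lost ones. A gene at 20 CPM rests on fewer UMIs among the cycling cells and in the shared range than in the whole state.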

Other observations

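Immediate early genes, which answer growth factors and stress within minutes, had a median log2 ratio of 0.44 in state 7, over 14 measured members and -0.11 outside it. Of these 2 were higher and 1 lower at 1.5-fold, beside 8.59% and 7.38% of all genes, so the counts are near those of all genes. Fos gave 13.8 CPM in B16F0 and 25.1 CPM in B16F10 within the state (0.86), Ier2 45.6 and 27.0 CPM (-0.75). Neat1, a nuclear noncoding RNA that scaffolds paraspeckles, gave 126 and 202 CPM in the state (0.68) and 132 and 110 CPM outside it (-0.26). In state 1 Neat1 gave 101 and 110 CPM (0.12), and in the shared pseudotime range its ratio was 0.21. Malat1, another nuclear noncoding RNA, was at 0.23 in the state and -0.35 outside.

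Genes of the unfolded protein and ATF4 response had a median of -0.30 in state 7 and -0.09 outside, with 1 higher and 6 lower of 27. Asns, asparagine synthetase, gave 233 and 98.6 CPM (-1.24), and Phgdh, which starts serine synthesis, 431 and 194 CPM (-1.15). Hsph1, a heat shock protein of the HSP110 family, changed order, at 30.1 and 18.2 CPM in the state (-0.73) and 28.1 and 35.8 CPM outside it (0.35). Cholesterol synthesis genes had a median of -0.24 in the state and 0.09 outside, with 1 higher and 0 lower of 16. Both list counts are at 1.5-fold, beside 8.59% higher and 7.38% lower of all genes at 10 CPM. The cholesterol counts are thus not above those of all genes.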
